A study of Mus musculus with 12 samples.

Results

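The 4 genes described here, *Cd247*, *Cd3e*, *Cd3d* and *Cd3g*, encode the CD3 chains. Their members were all regions of the deposited accessibility table that overlap the gene bodies, or the 10 kb on either side of them, in the GENCODE vM21 annotation of the mouse genome build mm10. This rule gave 50 of 63309 regions, each 500 bp long. *Cd247* held 33 of them, and the neighbouring genes *Cd3e*, *Cd3d* and *Cd3g* held 17. Of these 17, 8 fell to more than 1 gene, so these 3 genes are also treated together as a cluster. All 8 regions of *Cd3d* were shared, 7 with *Cd3g*, which had 9 regions, and 1 with *Cd3e*.

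T cells read antigen through an αβ T cell receptor (TCR) whose own chains carry no signalling tail. The receptor is assembled with CD3γ, CD3δ and CD3ε, encoded by *Cd3g*, *Cd3d* and *Cd3e*, and with a homodimer of CD3ζ, encoded by *Cd247*, and tyrosines in the CD3 tails are phosphorylated by Lck to recruit the kinase ZAP-70. CD3ζ joins the complex last and sets how much receptor reaches the cell surface. Invariant natural killer T (iNKT) cells are αβ T cells that recognise lipids on CD1d and split in the thymus into iNKT1, iNKT2 and iNKT17 cells, so the CD3 genes are in use in all the cells examined.

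Accessibility was measured by ATAC-seq, in which a transposase inserts into open chromatin. The 6 groups were iNKT1, iNKT2 and iNKT17 cells from the thymi of untreated C57BL/6 mice and of *Hivep3*-/- mice backcrossed to C57BL/6, which lack the zinc finger protein HIVEP3 in every cell, all aged 8 to 9 weeks, with 2 libraries a group. The subsets were sorted from pooled thymi on CD122, ICOS, Izumo1r and CD138, recombined for transposition and sorted again. This second sort used ICOS and CD138 alone, because transposition had quenched the CD122 and Izumo1r signals. The paper reports less ICOS in *Hivep3*-/- cells, and the part of this in the genotype comparisons was not tested. The titles number single mice, so what the 2 libraries of a group share is not settled and p-values measure only the spread between libraries. Values are log2 insertions per kb, and a linear mean of 5 insertions per kb (2.32 on the log2 scale) was taken as accessible. Depth is not known from these values, so a low value has no counting error beside it.

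Most marker promoters were most accessible in the subset they mark. Summed over *Tbx21*, *Il2rb* and *Ifng*, promoter accessibility was 383 to 390 insertions per kb in iNKT1 and 214 to 251 in the other groups, *Il2rb* giving 188 to 267 of it. The *Ifng* promoter read 28.2 in C57BL/6 and 6.64 in *Hivep3*-/- iNKT2 cells and that of *Tbx21* 23.9 and 19.5, and the part of this difference in the iNKT2 results was not tested. In iNKT17 cells the promoters of *Sdc1*, *Ccr6* and *Il23r* gave 63.8 to 76.2, 29.2 to 29.4 and 30.6 to 35.3, against 11.7 to 14.1, 0.153 to 0.799 and 0.0723 to 0.355 elsewhere. For *Izumo1r*, *Il4* and *Il17rb* the sums were 166 in C57BL/6 and 143 in *Hivep3*-/- iNKT2 cells, against 63.8 to 115 elsewhere, but *Il17rb* alone was no higher in iNKT2 cells, at 30.4 and 22.6 against 24.6 to 34.4. None of the 4 double positive thymocyte markers (*Rag1*, *Rag2*, *Ptcra*, *Cd8b1*) had a region within 1 kb of a start site. Of the B cell markers *Cd79a*, *Ms4a1* and *Pax5* and 4 myeloid markers (*Csf1r*, *Lyz2*, *Itgam*, *Cd14*) only *Pax5* (7.56 to 24.6) and *Cd14* (14.3 to 18.2) had one. The gene body and 10 kb around *Ptcra* and *Cd79a* averaged 69.4 to 83.0 and 46.1 to 60.9, and those of *Cd14* 59.0 to 66.2. *Itgam* averaged 33.9 in C57BL/6 and 30.6 in *Hivep3*-/- iNKT1 cells and 0.143 to 2.16 elsewhere, and *Lyz2* 1.61 to 9.38. The part of these signals in the results was not tested. In the gene body of *Hivep3*, none of the regions was called between the genotypes in any subset, and the deleted part is not marked in the table, so accessibility there does not check the genotype.

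Averaged over its regions, *Cd247* was the least accessible of the 4 genes in every C57BL/6 subset, but unlike regions are averaged. Most *Cd247* regions lie in its first intron, and most cluster regions within 1 kb of a start site. The region at the start of *Cd247* averaged 52.5, 47.5 and 36.6 in C57BL/6 iNKT1, iNKT2 and iNKT17 cells. That of *Cd3d* was lower (39.1, 46.8 and 24.6), and those of *Cd3e* (67.6, 70.3 and 71.3) and *Cd3g* (70.4, 83.2 and 60.8) were higher. The C57BL/6 libraries gave *Cd247* 14.3 and 15.1 insertions per kb in iNKT1, 16.0 and 18.9 in iNKT17, and 19.4 and 20.3 in iNKT2 cells, an order in which neighbouring subsets did not overlap. These averages over chosen regions are descriptions with no test. *Cd3e* gave 26.4 to 31.1 over the same 6 libraries, highest in iNKT1. *Cd3d* gave 42.0 to 44.4 and *Cd3g* 44.1 to 47.2 in iNKT1 and iNKT2 cells, whose ranges overlapped within each gene. Both were lower in iNKT17 cells, at 31.3 to 31.9 for *Cd3d* and 34.5 to 34.9 for *Cd3g*, but most of their regions are the same.

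In *Hivep3*-/- cells the *Cd247* average was higher in all 3 subsets, with no overlap of libraries. It was 22.9 and 23.3 in iNKT1, 34.2 and 34.5 in iNKT2, and 27.9 and 29.3 in iNKT17 cells, which is 1.57, 1.73 and 1.64 times the C57BL/6 mean. For the cluster of *Cd3e*, *Cd3d* and *Cd3g* the same ratios were 0.993, 1.14 and 1.04. In iNKT2 cells the *Hivep3*-/- libraries lay above the C57BL/6 libraries at *Cd3e* (31.8 and 32.3 against 26.4 and 26.6), *Cd3d* (47.2 and 50.9 against 42.0 and 44.4) and *Cd3g* (48.8 and 52.0 against 44.7 and 47.2). Since every *Cd3d* region is also counted at *Cd3g* or *Cd3e*, these are not separate results. With this rise *Cd247* passed *Cd3e* in iNKT2 cells and overlapped it in iNKT17 cells, where *Cd3e* gave 27.9 and 31.1. Because the cells were pooled, more cells with open chromatin and more insertions in each cell cannot be told apart.

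**Figure D1:**
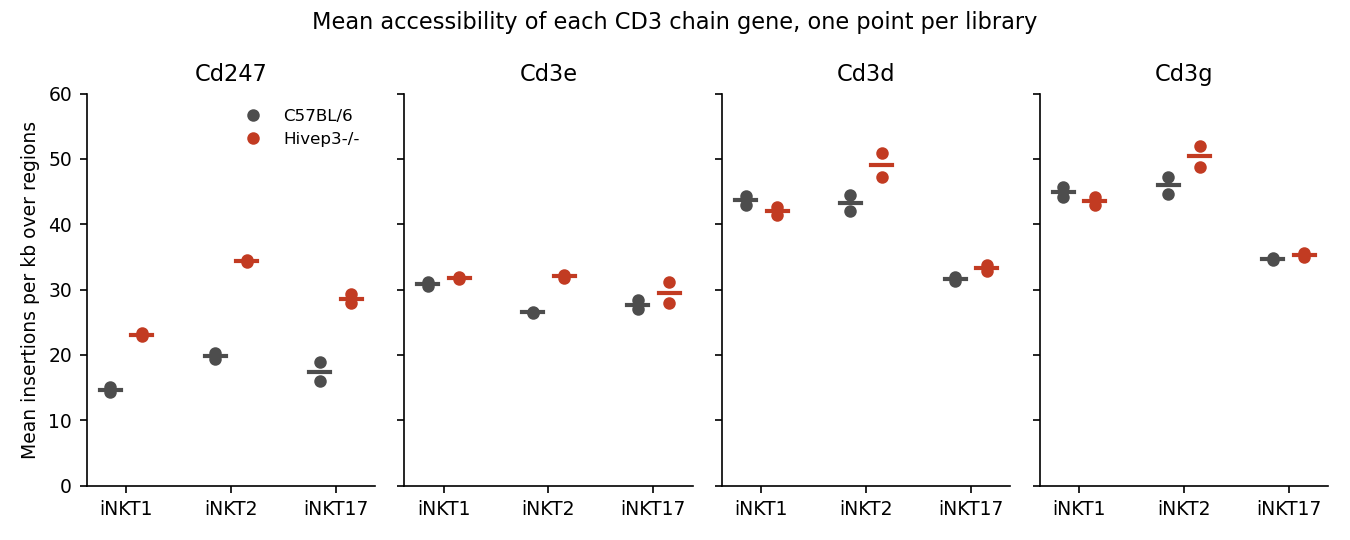
Mean linear accessibility (insertions per kb) over all regions of each gene, 1 point per library and a bar at the group mean of 2 libraries, for C57BL/6 (grey) and *Hivep3*-/- (red) cells. At *Cd247* every *Hivep3*-/- pair lies above its C57BL/6 pair, while at the other 3 genes the pairs lie near each other except in iNKT2 cells.

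*Cd247* (ENSMUSG00000005763.15) runs for 88.6 kb on the plus strand of chromosome 1, from 165788681 to 165877277. In its longest coding transcript a first intron of 66.28 kb, from 165788887 to 165855165, separates exon 1 from the other 7 exons. Of the 33 regions, 2 lay at the start site, 27 farther into the first intron, 3 beyond exon 2 and 1 before the gene.

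The genotype difference at *Cd247* sat mostly in the first intron. By limma with Benjamini-Hochberg adjustment over all tested regions of the series, a region was called when its adjusted p was under 0.1 and its change at least 3-fold. Higher calls in *Hivep3*-/- cells numbered 4 of 24 tested regions in iNKT1 cells, 12 of 33 for iNKT2 and 11 of 32 for iNKT17, against 0.89%, 0.474% and 0.133% of all tested regions. Of these calls 3, 9 and 10 were under 5 insertions per kb in C57BL/6 cells and entered the test only through *Hivep3*-/- cells. Among regions accessible in C57BL/6 cells 1 of 16, 3 of 22 and 1 of 20 were called. With no filter on accessibility 8, 12 and 11 of 33 were called higher, against 753, 598 and 236 of all 63309 regions. No *Cd247* region was called lower, where 0.264%, 1.2% and 0.138% of all regions were. Of the 16 regions behind these calls 1 was called in 3 subsets, 9 in 2 and 6 in 1. All 16 lay in the first intron, which holds 27 of the 33 regions, 2.0 to 61.6 kb from the start.

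The 2 regions at the start site changed little. They averaged 44.8 insertions per kb in C57BL/6 and 48.8 in *Hivep3*-/- iNKT1 cells, 43.8 and 47.4 in iNKT2, and 38.4 and 43.9 in iNKT17 cells. The region over exon 1 itself (chr1:165788430-165788929) read 5.87 and 5.54 in C57BL/6 and 5.68 and 5.70 in *Hivep3*-/- iNKT1 cells, on the log2 scale. Its change was -0.02 for iNKT1, 0.30 for iNKT2 and 0.23 for iNKT17 (standard error 0.15, adjusted p = 0.983, 0.224 and 0.488 by limma). The 95% interval of that change ran up to 1.23-fold, 1.53-fold and 1.46-fold, so a 3-fold rise lay outside it in each subset. The second region, 0.8 kb from the start, changed by 0.32, -0.16 and 0.14, and a region at an internal start site 69.9 kb into the gene by 0.10, 0.19 and 0.02, none of them called.

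The first intron held most of the gain. Its 27 regions averaged 12.9 and 14.4 insertions per kb in C57BL/6 and 23.1 and 23.5 in *Hivep3*-/- iNKT1 cells. In iNKT2 cells they averaged 18.3 and 17.4 against 33.4 and 34.2, and in iNKT17 cells 14.4 and 17.2 against 27.8 and 28.6. This intron carried 93.6%, 90.4% and 91.0% of the insertions gained over the whole locus in the 3 subsets. It also holds 27 of the 33 regions, so much of this share follows from where the regions lie. Its *Hivep3*-/- average was 1.70, 1.90 and 1.78 times that of C57BL/6 cells, against 1.09, 1.08 and 1.14 at the start site. All of its tested regions were higher in *Hivep3*-/- cells, 20 for iNKT1, 27 for iNKT2 and 26 for iNKT17, and their median log2 changes were 1.34, 1.45 and 1.33. Because a region that was accessible in 1 genotype alone passed this filter, the count over every region is also given: of all 33 *Cd247* regions 31, 32 and 32 were higher in *Hivep3*-/- cells, with medians of 1.32, 1.09 and 1.20. The median over all regions tested in the series was -0.018, -0.001 and -0.012. Beyond exon 2 none of the 3 regions was called, and their tested changes lay between -0.22 and 0.63. In iNKT1 cells only 1 of the 3 was tested. The untested region 78.2 kb from the start rose there by 1.57, from -0.11 and 0.20 to 1.49 and 1.75. The untested region at 79.6 kb changed by -0.80.

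The gain brought quiet stretches of the intron over the accessible level. In C57BL/6 cells 12, 16 and 14 of its 27 regions reached 5 insertions per kb (iNKT1, iNKT2 and iNKT17), and in *Hivep3*-/- cells 20, 27 and 26 did. The changes were larger where C57BL/6 cells had less, a level that also enters the change. Over all 33 regions the median log2 change was 0.60, 0.74 and 0.63 where the C57BL/6 mean was at least 5, and 1.53, 2.67 and 2.07 where it was lower. The 16 called regions had a median C57BL/6 level of 0.97 on the log2 scale and the 17 others one of 4.83. The strongest region of the locus, 56.1 kb from the start, read 6.51 to 7.00 in the C57BL/6 and 6.79 to 7.30 in the *Hivep3*-/- libraries, with changes of 0.24, 0.43 and 0.42. It was singled out after its values were seen.

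**Figure D2:**
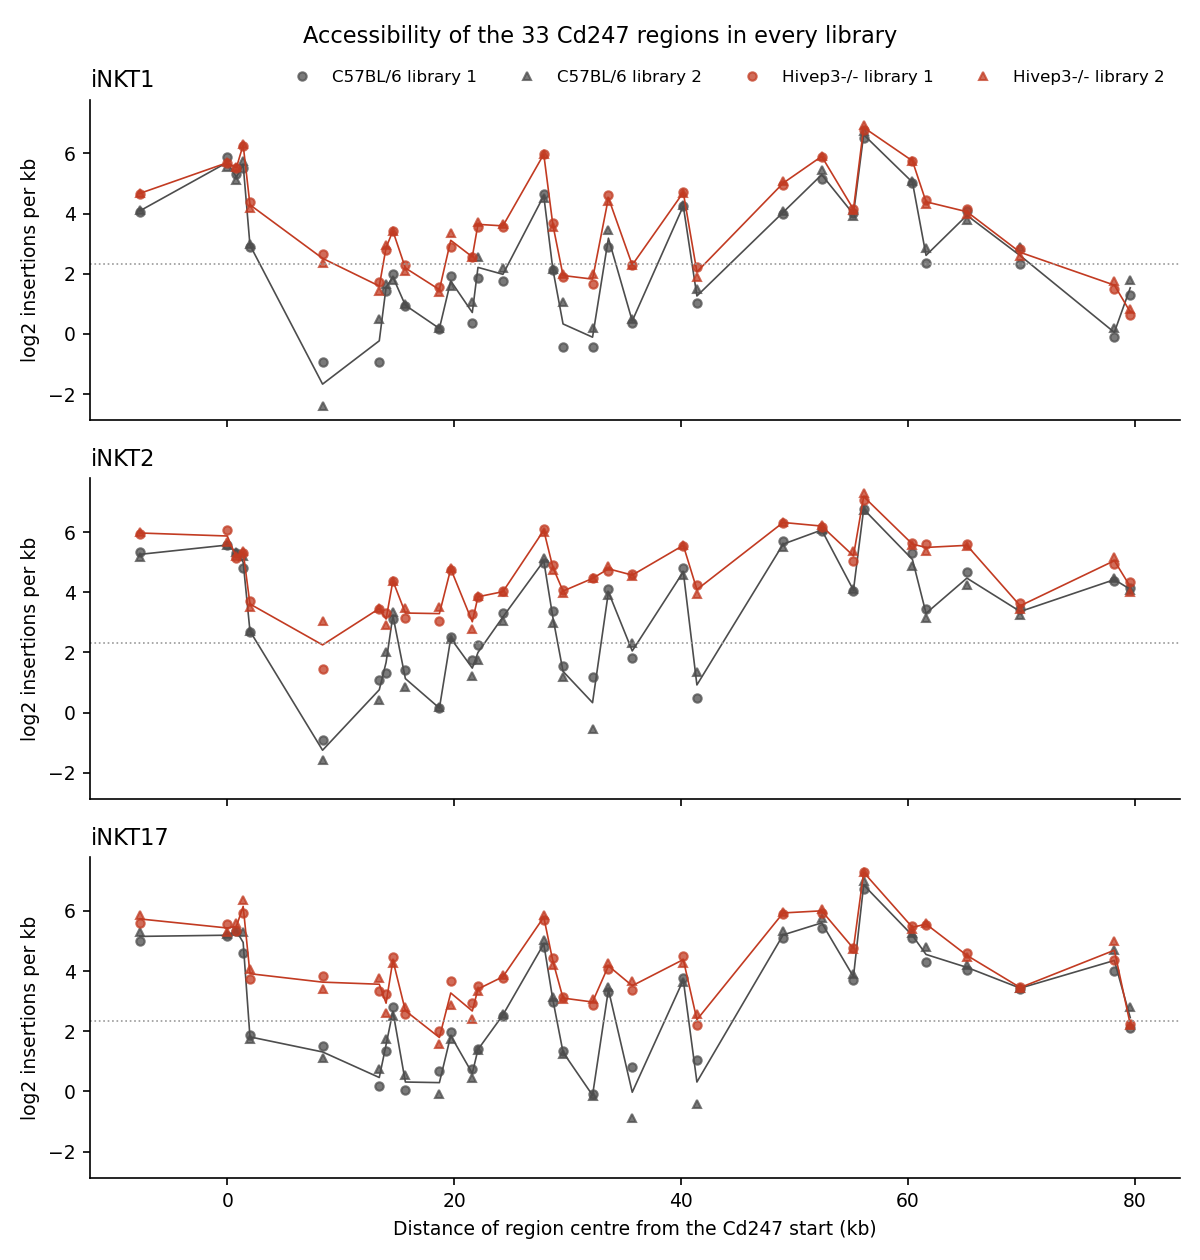
Log2 insertions per kb of the 33 *Cd247* regions against the distance of the region from the gene start in kb, 1 panel per subset, with circles and triangles for the 2 libraries of each group, lines through the group means and a dotted line at the accessible level of 2.32. The *Hivep3*-/- lines run above the C57BL/6 lines from 2.0 to 61.6 kb and meet them at the start site and near 70 kb.

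Replicates separated cleanly at most regions. Both *Hivep3*-/- libraries lay above both C57BL/6 libraries at 21 of 24 tested regions for iNKT1, 31 of 33 for iNKT2 and 29 of 32 for iNKT17, against 25.7%, 27.3% and 21.9% of all tested regions. At 27 of the 33 regions this held in all 3 subsets, against 4.02% of all 63309 regions. At 16 of them all 6 *Hivep3*-/- libraries exceeded all 6 C57BL/6 libraries, against 0.316% of all regions. With the adjusted p alone, at any fold, 18, 26 and 24 regions were past 0.1, all higher in *Hivep3*-/- cells, against 5.49%, 8.26% and 2.66% of all tested regions. Some of the 24, 33 and 32 tested regions entered only through *Hivep3*-/- cells. In C57BL/6 cells 16, 22 and 20 regions reached 5 insertions per kb. With no filter on accessibility 25, 26 and 25 of 33 were past 0.1, all higher, and no share of all regions was taken for that fit. The counts of 27 and 16 used no filter. Averaged over the subsets, 12 of 33 regions were called higher, against 0.202% of all regions. The subsets were recombined for transposition and share replicate numbers, so agreement between the 3 subsets is not known to be independent.

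The calls, but not the direction, depended on how low values were treated. The 3-fold threshold met low C57BL/6 values, so with a pseudocount of 5 insertions per kb only 0, 5 and 0 regions were called in iNKT1, iNKT2 and iNKT17 cells, while 18, 27 and 25 stayed past the adjusted p, all of them higher. Without the first C57BL/6 iNKT1 library 2 regions were called in iNKT1, and without the second C57BL/6 iNKT17 library 7 were called in iNKT17 cells. Without the first C57BL/6 iNKT17 library 13 rather than 24 regions passed the adjusted p at any fold in iNKT17 cells.

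Of all higher calls in the series *Cd247* held 4 of 482 among iNKT1 cells (0.83%), 12 of 261 among iNKT2 (4.60%) and 11 of 72 among iNKT17 (15.3%). Counted over gene bodies, no other of 18168 genes with a region had as many higher calls in iNKT2 or iNKT17 cells, where the next gene had 7 and 5, and in iNKT1 cells 1 gene, *Camk2b*, had more, with 5. The count grows with the number of regions in a gene, which was 32 in *Cd247*, 13 in *Camk2b* and 8 in *Setbp1*, the gene with 7 calls in iNKT2 cells. As a share of its regions, *Cd247* had fewer calls than *Setbp1* in iNKT2 cells and than *Camk2b* in every subset. Of the *Cd247* calls 3 of 4, 9 of 12 and 10 of 11 entered the test only through *Hivep3*-/- cells. The rank is thus a description of these counts.

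Single regions show the range of the change, and the centres of 3 of them are printed to show the intronic sequence that gained accessibility. The region 8.4 kb from the start (chr1:165796787-165797286) was called in all 3 subsets. It read -0.94 and -2.39 in C57BL/6 and 2.67 and 2.35 in *Hivep3*-/- iNKT1 cells, -0.92 and -1.59 against 1.44 and 3.05 in iNKT2 cells, and 1.51 and 1.11 against 3.85 and 3.40 in iNKT17 cells. The changes were 4.18, 3.50 and 2.32 (standard error 0.57, adjusted p = 0.000874, 0.00226 and 0.0552 by limma). The genotypes were apart in each subset, although the 2 *Hivep3*-/- iNKT2 libraries differed by more than 1. Its iNKT17 call rested on every library: leaving out any one of the 4 gave changes of 2.09 to 2.54 with adjusted p between 0.138 and 0.207 by limma.

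The largest rise in iNKT2 cells was 32.2 kb from the start (chr1:165820642-165821141). There the C57BL/6 libraries read 1.20 and -0.55 and both *Hivep3*-/- libraries 4.46, a change of 4.13 (standard error 0.47, adjusted p = 0.000267 by limma). In iNKT17 cells the same region went from -0.10 and -0.17 to 2.88 and 3.06, a change of 3.10 (adjusted p = 0.00677). It was not tested in iNKT1 cells, which stayed below the accessible level, at -0.42 and 0.20 against 1.66 and 1.98.

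The largest rise in iNKT17 cells was 35.7 kb from the start (chr1:165824121-165824620). The C57BL/6 libraries read 0.82 and -0.88 and the *Hivep3*-/- libraries 3.37 and 3.66, a change of 3.55 (standard error 0.43, adjusted p = 0.00217 by limma). The groups lay far apart although the C57BL/6 libraries differed by more than 1. In iNKT2 cells the same region went from 1.81 and 2.30 to 4.61 and 4.54 (2.52, adjusted p = 0.0028).

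A rise of high precision, singled out after its values were seen, was in a region that was accessible in every group. The region 27.9 kb from the start read 4.64 and 4.53 in C57BL/6 and 5.98 and 5.97 in *Hivep3*-/- iNKT1 cells, a 2.62-fold difference (1.39 ± 0.12 on the log2 scale, adjusted p = 2.98e-05 by limma). In iNKT2 and iNKT17 cells it differed 2.02-fold and 1.85-fold, so it was called in no subset at the 3-fold threshold while its genotypes overlapped in none.

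The central 300 bases of the 3 regions follow, 5′ to 3′ on the plus strand, read from the RefSeq copy of the mm10 assembly (GRCm38.p6). Capitals mark matches, on either strand, to the short motifs searched in all regions: the RUNX factor letters TGTGGT, the ETS factor letters GGAAGT, the NFAT letters TTTCCA, the TCF and LEF factor letters CTTTGA, the GATA factor letters AGATAA, the dimer site TGANTCA of AP-1, the helix-loop-helix site CANNTG called the E-box, the T-box factor letters AGGTGT, and the NF-kB consensus. Motifs may overlap each other.
Cd247 intron, 8.4 kb, chr1:165796887-165797186: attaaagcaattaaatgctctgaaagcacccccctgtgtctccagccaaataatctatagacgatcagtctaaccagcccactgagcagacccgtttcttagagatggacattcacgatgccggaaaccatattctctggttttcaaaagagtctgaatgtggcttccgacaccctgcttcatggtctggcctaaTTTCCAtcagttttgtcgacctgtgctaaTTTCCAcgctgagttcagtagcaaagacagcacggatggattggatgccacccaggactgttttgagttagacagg
Cd247 intron, 32.2 kb, chr1:165820742-165821041: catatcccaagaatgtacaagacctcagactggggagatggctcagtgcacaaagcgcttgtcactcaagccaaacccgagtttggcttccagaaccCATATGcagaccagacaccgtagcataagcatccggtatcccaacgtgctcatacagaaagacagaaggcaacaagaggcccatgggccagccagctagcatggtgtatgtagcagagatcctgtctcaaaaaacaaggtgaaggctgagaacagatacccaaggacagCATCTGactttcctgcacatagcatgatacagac
Cd247 intron, 35.7 kb, chr1:165824221-165824520: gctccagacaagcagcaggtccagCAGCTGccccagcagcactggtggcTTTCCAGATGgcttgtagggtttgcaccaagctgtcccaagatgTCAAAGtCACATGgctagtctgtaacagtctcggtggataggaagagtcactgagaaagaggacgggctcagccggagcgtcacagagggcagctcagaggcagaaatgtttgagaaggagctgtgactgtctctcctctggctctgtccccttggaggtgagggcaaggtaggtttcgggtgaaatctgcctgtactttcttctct
The first held 2 matches of the NFAT letters and no other, the second 2 E-box matches, and the third 3 E-box, 1 TCF and 1 NFAT match, where the NFAT match shares bases with an E-box.

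The genotype change was larger in iNKT2 than in iNKT1 cells at 3 of 33 tested regions, all in the first intron, by a test of the difference itself. Of all 59926 regions in that test 602 were called in this direction, and 3.06% in either direction. All 3 entered the test through *Hivep3*-/- iNKT2 cells, where they averaged at least 9.87 insertions per kb, since the other 3 groups stayed under 5. In the fit with no filter on accessibility they were called with the same differences (adjusted p = 0.0416 to 0.0701 by limma). Neither test against iNKT17 cells called a *Cd247* region, where 1.42% (iNKT1 against iNKT17) and 1.02% (iNKT2 against iNKT17) of all regions were called. The first, 41.4 kb from the start, read 1.02 and 1.50 against 2.22 and 1.90 in iNKT1 cells, but 0.49 and 1.34 against 4.25 and 3.94 in iNKT2 cells. The iNKT2 change exceeded that in iNKT1 by 2.38 (standard error 0.63, adjusted p = 0.0418 by limma).

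The others lay 18.7 and 32.2 kb from the start, with differences of 1.84 (adjusted p = 0.0666) and 2.20 (adjusted p = 0.0707). At 18.7 kb the iNKT1 libraries read 0.15 and 0.20 against 1.56 and 1.38, and the iNKT2 libraries 0.14 and 0.17 against 3.05 and 3.52. These 3 calls rested on single libraries: the count was 0 without the second C57BL/6 or the second *Hivep3*-/- iNKT1 library. It was 1 without the first *Hivep3*-/- iNKT1 library or without any one of the 4 iNKT2 libraries.

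The other CD3 chains lie together on chromosome 9. *Cd3g* (ENSMUSG00000002033.14, 44969572 to 44980431, minus strand) and *Cd3d* (ENSMUSG00000032094.8, 44981786 to 44987339, plus strand) diverge from a shared intergenic stretch, and *Cd3e* (ENSMUSG00000032093.7, 44998740 to 45009627, minus strand) follows. Of their 17 regions 10 lay within 1 kb of an annotated start site. None of the 17 was called between the genotypes in any subset, higher or lower, and since 0.89%, 0.474% and 0.133% of all regions were called higher, a count of 0 among 17 lies near the share of all regions. Their median log2 changes were -0.01 (iNKT1), 0.21 (iNKT2) and 0.06 (iNKT17), beside 1.14, 1.09 and 1.10 at *Cd247*. The loci differ in the position and C57BL/6 level of their regions, so these medians do not compare like regions. At *Cd247* the regions within 1 kb of a start had medians of 0.10, 0.19 and 0.14, and those accessible in C57BL/6 cells 0.60, 0.74 and 0.63.

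At the start of *Cd3e* (chr9:45009111-45009610) the C57BL/6 libraries read 6.02 and 6.13 in iNKT1, 6.23 and 6.04 in iNKT2, and 6.15 and 6.16 in iNKT17 cells. The *Hivep3*-/- libraries read 6.11 and 6.15, 6.35 and 6.33, and 6.45 and 6.22, which overlapped the C57BL/6 libraries in iNKT1 and lay just above them in the other subsets. The changes were 0.05, 0.21 and 0.18 (adjusted p = 0.884, 0.208 and 0.423 by limma).

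At the start of *Cd3d* (chr9:44981525-44982024) the changes were -0.05, 0.37 and 0.18 (adjusted p = 0.931, 0.132 and 0.621). At the start of *Cd3g* (chr9:44980198-44980697) they were -0.07, 0.17 and 0.14 (adjusted p = 0.837, 0.311 and 0.549). Over the 3 genes and 3 subsets the 95% intervals of the change at the start region ended at 1.60-fold or below.

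In iNKT2 cells 4 of the 17 regions passed the adjusted p at a smaller fold, all higher in *Hivep3*-/- cells, where 8.26% of all regions were. None passed in iNKT1 or iNKT17 cells, although 2 did in iNKT17 cells in the fit with the replicate number as a block. The largest lay between *Cd3d* and *Cd3e* (chr9:44996566-44997065) and read 2.96 and 2.79 in C57BL/6 and 3.86 and 3.72 in *Hivep3*-/- iNKT2 cells (0.92, adjusted p = 0.011 by limma). The others were the *Cd3g* region 6.8 kb from the start (0.82), and *Cd3e* regions 1.2 kb inside (0.63) and 1.0 kb before (0.29) the gene. When any 1 iNKT2 library was left out 1 region of the cluster passed, and 2 passed without either *Hivep3*-/- iNKT1 library. In iNKT1 and iNKT17 cells the largest rises, 0.27 and 0.64, did not pass (adjusted p = 0.543 and 0.160). The largest change in the other direction was -0.67 in iNKT1 cells, in a *Cd3g* region 6.8 kb from the start that did not pass (adjusted p = 0.205), and the lowest changes in iNKT2 and iNKT17 cells were -0.21 and -0.24. Both *Hivep3*-/- libraries were above both C57BL/6 libraries at 3 of 17, 11 of 17 and 6 of 16 tested regions, against the 25.7%, 27.3% and 21.9% of all tested regions.

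**Figure D3:**
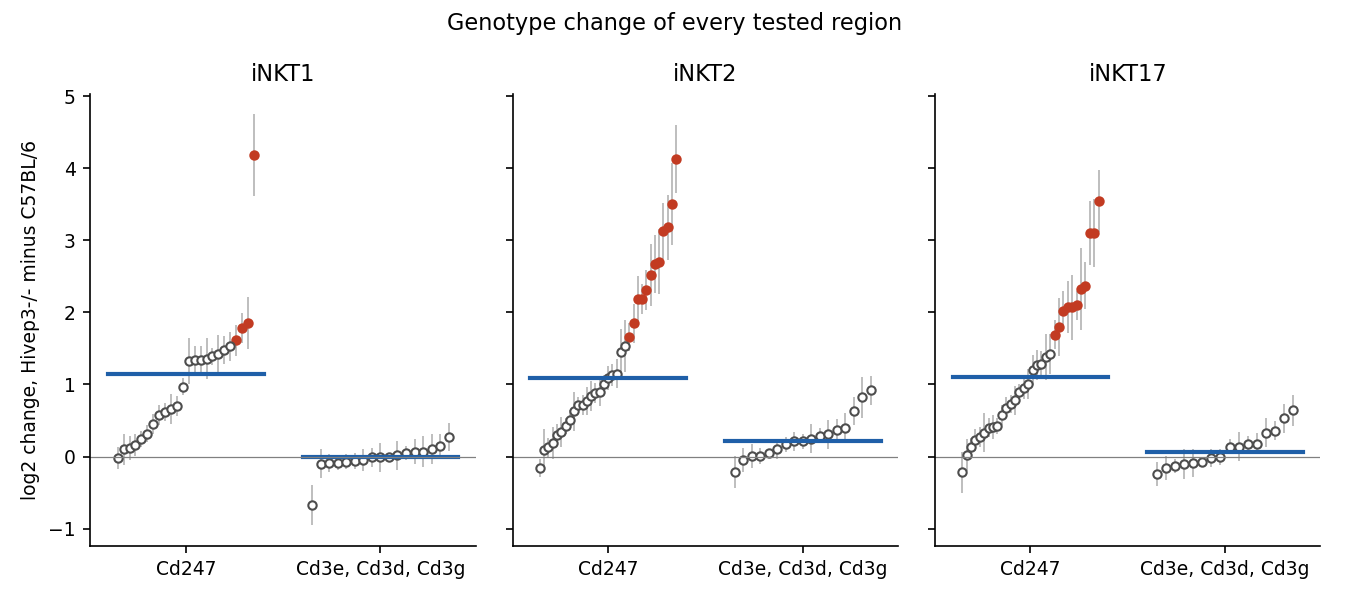
Log2 change (*Hivep3*-/- minus C57BL/6) of every tested region at *Cd247* and at *Cd3e*, *Cd3d* and *Cd3g*, sorted by size, with standard errors from limma, filled red points for called regions and a blue line at the median. The *Cd247* medians lie between 1.09 and 1.14, the others between -0.01 and 0.21, and all filled points are at *Cd247*.

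The starts of the 4 genes, where accessibility was high in every group and no region was called, are shown for comparison with the introns. The 250 bases before each RefSeq start are given 5′ to 3′ along the gene (GRCm38.p6), with the same motifs in capitals. All 4 genes had an entry in the promoter table.
Cd247, chr1:165788431-165788680, plus strand: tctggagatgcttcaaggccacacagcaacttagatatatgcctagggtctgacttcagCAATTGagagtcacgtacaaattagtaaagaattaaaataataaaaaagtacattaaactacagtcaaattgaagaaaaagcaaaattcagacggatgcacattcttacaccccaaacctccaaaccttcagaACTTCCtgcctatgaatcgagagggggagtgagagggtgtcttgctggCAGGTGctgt
Cd3e, chr9:45009612-45009861, minus strand: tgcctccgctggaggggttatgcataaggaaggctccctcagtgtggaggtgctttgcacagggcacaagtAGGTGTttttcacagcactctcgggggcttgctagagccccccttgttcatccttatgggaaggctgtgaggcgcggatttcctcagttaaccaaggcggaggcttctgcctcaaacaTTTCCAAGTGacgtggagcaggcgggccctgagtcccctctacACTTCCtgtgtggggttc
Cd3d, chr9:44981536-44981785, plus strand: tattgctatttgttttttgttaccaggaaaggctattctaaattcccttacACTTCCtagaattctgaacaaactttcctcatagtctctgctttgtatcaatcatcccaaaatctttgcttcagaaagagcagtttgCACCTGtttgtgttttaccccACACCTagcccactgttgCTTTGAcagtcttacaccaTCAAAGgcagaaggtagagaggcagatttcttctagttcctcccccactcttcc
Cd3g, chr9:44980432-44980681, minus strand: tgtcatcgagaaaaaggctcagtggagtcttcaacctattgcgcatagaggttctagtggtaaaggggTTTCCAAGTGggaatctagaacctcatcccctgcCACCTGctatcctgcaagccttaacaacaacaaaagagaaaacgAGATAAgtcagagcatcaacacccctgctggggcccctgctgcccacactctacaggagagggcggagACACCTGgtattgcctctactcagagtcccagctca
*Cd247*, *Cd3e* and *Cd3d* each held 1 ETS match, which 19.7% of 32817 promoters did, and *Cd3g* none. *Cd3e* and *Cd3g* each held the NFAT letters once, in both cases sharing bases with an E-box, where 18.6% of promoters held them. The T-box letters stood once in *Cd3e*, *Cd3d* and *Cd3g* (11.8% of promoters), the TCF letters 2 times in *Cd3d* (13.8%) and the GATA letters once in *Cd3g* (9.99%). E-boxes, present in 66.2% of promoters, stood in all 4.

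Over whole regions of 500 bp the first intron of *Cd247* was unremarkable in base composition, with a median GC content of 51.0% against 50.0% for all regions. The NFAT letters stood in 18 of its 27 regions (66.7%) and in 33.7% of all regions, the TCF letters in 44.4% and 30.5%, and the GATA letters in 33.3% and 20.6%. For RUNX the shares were 51.9% and 40.2%, for AP-1 22.2% and 15.9%, for the T-box 37.0% and 26.4%, for E-boxes 88.9% and 90.3%, and for NF-kB 11.1% and 8.60%. The ETS letters stood in 33.3% and 38.1%, and in 64.7% of the regions of the *Cd3e*, *Cd3d* and *Cd3g* cluster. In the cluster, where no region was called between the genotypes, the NFAT letters stood in 52.9%. The other cluster shares were 58.8% for RUNX, 47.1% for the T-box, 35.3% for TCF and 23.5% for GATA. For AP-1, E-boxes and NF-kB they were 17.6%, 94.1% and 5.88%. The NFAT letters stood in 11 of the 16 called *Cd247* regions and in 8 of the 17 others. A match describes the sequence and says nothing of whether a factor binds.

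No region was called between the genotypes from 10 to 500 kb on either side of *Cd247*. Of all tested regions 0.89%, 0.474% and 0.133% were called higher and 0.264%, 1.2% and 0.138% lower. The lack of calls lies near those shares. Between 10 and 100 kb from the gene 17, 17 and 16 regions were tested, and between 100 and 500 kb 27, 23 and 30. Their median changes were -0.01, 0.04 and 0.21 in the nearer stretch and 0.05, 0.05 and -0.09 in the farther one (iNKT1, iNKT2 and iNKT17). Of the neighbouring genes, *Creg1*, 13.4 kb before *Cd247*, had median changes of -0.05, -0.15 and -0.17. *Pou2f1*, which encodes the octamer-binding factor Oct-1 and overlaps the end of *Cd247* on the chromosome, had 0.07, 0.21 and 0.06.

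The only region of the locus outside the gene body, 7.7 kb before the start, was also higher in *Hivep3*-/- cells. It read 4.05 and 4.13 against 4.65 and 4.69 in iNKT1, 5.33 and 5.18 against 5.94 and 6.00 in iNKT2, and 4.99 and 5.31 against 5.60 and 5.87 in iNKT17 cells. Its changes of 0.58, 0.71 and 0.58 passed the adjusted p (0.0231, 0.00542 and 0.045 by limma) but stayed under 3-fold. It also overlaps the noncoding gene *Gm16565*, and it was singled out after its values were seen.

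Around the cluster, no region within 100 kb was called, with 20, 19 and 20 regions tested from 10 to 100 kb away, which lies near the shares of all regions. Between 100 and 500 kb 3 of 82 tested regions were called lower in *Hivep3*-/- iNKT2 cells, where 1.2% of all regions were. They were 1 in *Phldb1* and 2 in *Il10ra*, the gene of the interleukin 10 receptor, and none was called in the other subsets.

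**Figure D4:**
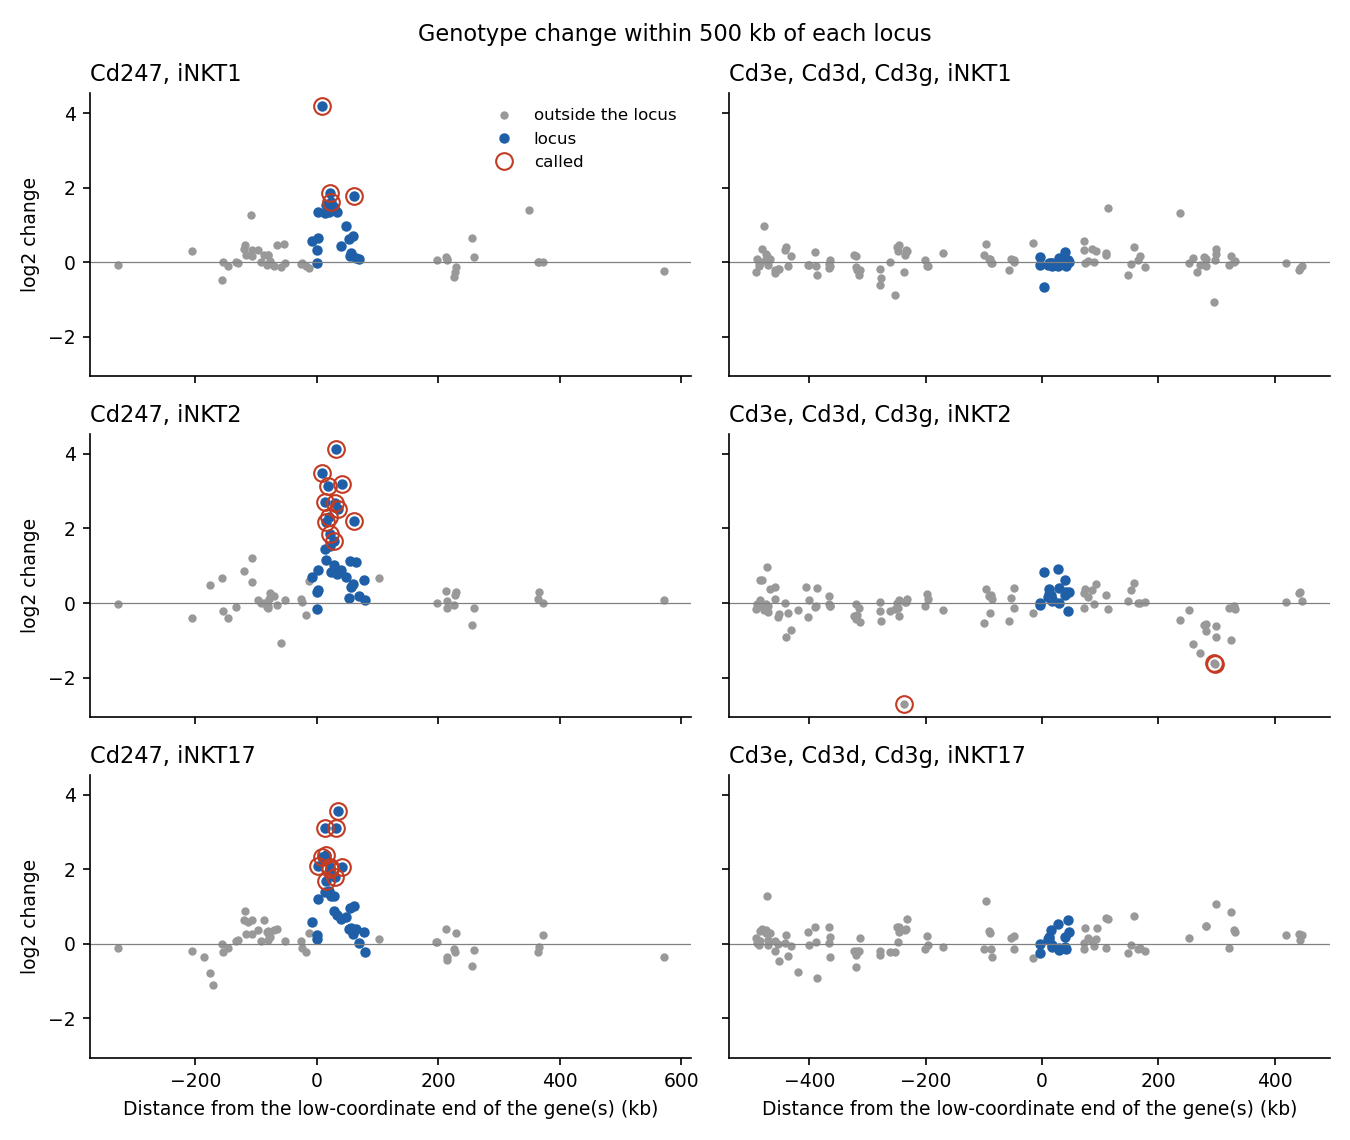
Log2 change (*Hivep3*-/- minus C57BL/6) of all tested regions within 500 kb of *Cd247* (left) and of the *Cd3e*, *Cd3d* and *Cd3g* cluster (right) against the distance in kb from the end of the locus with the lowest coordinate, with member regions in blue, others in grey and called regions circled. The circled rises fall inside *Cd247*, and the circled falls lie 100 to 500 kb from the cluster in iNKT2 cells.

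Between the C57BL/6 subsets 22, 21 and 22 of the 33 *Cd247* regions were tested (iNKT1 and iNKT2, iNKT1 and iNKT17, iNKT2 and iNKT17), and the others, weak regions of the first intron, were not. Against iNKT1, 2 regions were called in iNKT2 and 2 in iNKT17 cells, and 1 was called for iNKT17 against iNKT2, while 16.0%, 20.5% and 16.2% of all tested regions were called in these comparisons. With no filter on accessibility 3 were called in each. The untested region 8.4 kb from the start read higher in iNKT17 than in iNKT1 and iNKT2 cells by 2.98 and 2.57, and that at 35.7 kb higher in iNKT2 than in iNKT1 and iNKT17 cells by 1.63 and 2.09. The region 78.2 kb from the start (chr1:165866583-165867082) overlaps an exon of some *Cd247* transcripts and also *Pou2f1*. It read -0.11 and 0.20 in iNKT1, 4.37 and 4.47 in iNKT2, and 4.01 and 4.70 in iNKT17 cells. The iNKT2 and iNKT17 levels were higher than the iNKT1 level by 4.38 and 4.31 (standard error 0.27, adjusted p = 8.25e-08 and 3.01e-08 by limma), and their ranges overlapped each other.

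In *Hivep3*-/- cells iNKT1 was again lowest at this region, with 1.49 and 1.75 in iNKT1, 4.93 and 5.17 in iNKT2, and 4.37 and 5.01 in iNKT17 cells. The next region, 79.6 kb from the start (chr1:165868073-165868572), was highest in iNKT2 cells, at 4.14 and 4.06, against 1.28 and 1.78 in iNKT1 and 2.09 and 2.80 in iNKT17 cells. iNKT2 exceeded iNKT1 by 2.56 (adjusted p = 8.8e-06 by limma), and iNKT17 fell by 1.65 from iNKT2 (adjusted p = 0.000319). The second of these calls was lost without the first C57BL/6 iNKT17 library, where the difference was -1.30, under 3-fold. Of the 16 regions called between the genotypes, 10 were tested in no C57BL/6 comparison, and of the 6 others the region 61.6 kb from the start was called. It read 2.35 and 2.86 in iNKT1, 3.45 and 3.14 in iNKT2, and 4.31 and 4.79 in iNKT17 cells, with iNKT17 above iNKT1 by 1.94 (adjusted p = 3.38e-06).

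At the other chains 8 of 17, 9 of 17 and 8 of 16 tested regions passed the adjusted p at any fold between C57BL/6 subsets, against 55.2%, 58.4% and 52.3% of all tested regions. At 3-fold 0, 1 and 1 were called, against the 16.0%, 20.5% and 16.2% given above. The *Cd3g* region 6.8 kb from the start (chr9:44973354-44973853) read 3.23 and 3.05 in iNKT1, 1.75 and 1.53 in iNKT2, and 0.91 and 0.82 in iNKT17 cells. Its level in iNKT17 cells fell by 2.27 from iNKT1 (standard error 0.28, adjusted p = 1.15e-05 by limma), and the 3 subsets did not overlap. A region 6.4 kb before *Cd3e* (chr9:45015804-45016303) read 4.09 and 4.28 in iNKT1, 2.38 and 2.81 in iNKT2, and 4.19 and 4.31 in iNKT17 cells, so that iNKT2 was low and the others overlapped. iNKT17 exceeded iNKT2 there by 1.65 (adjusted p = 1.68e-05), a call that was lost without the first C57BL/6 iNKT2 library, at 1.44.

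**Figure D5:**
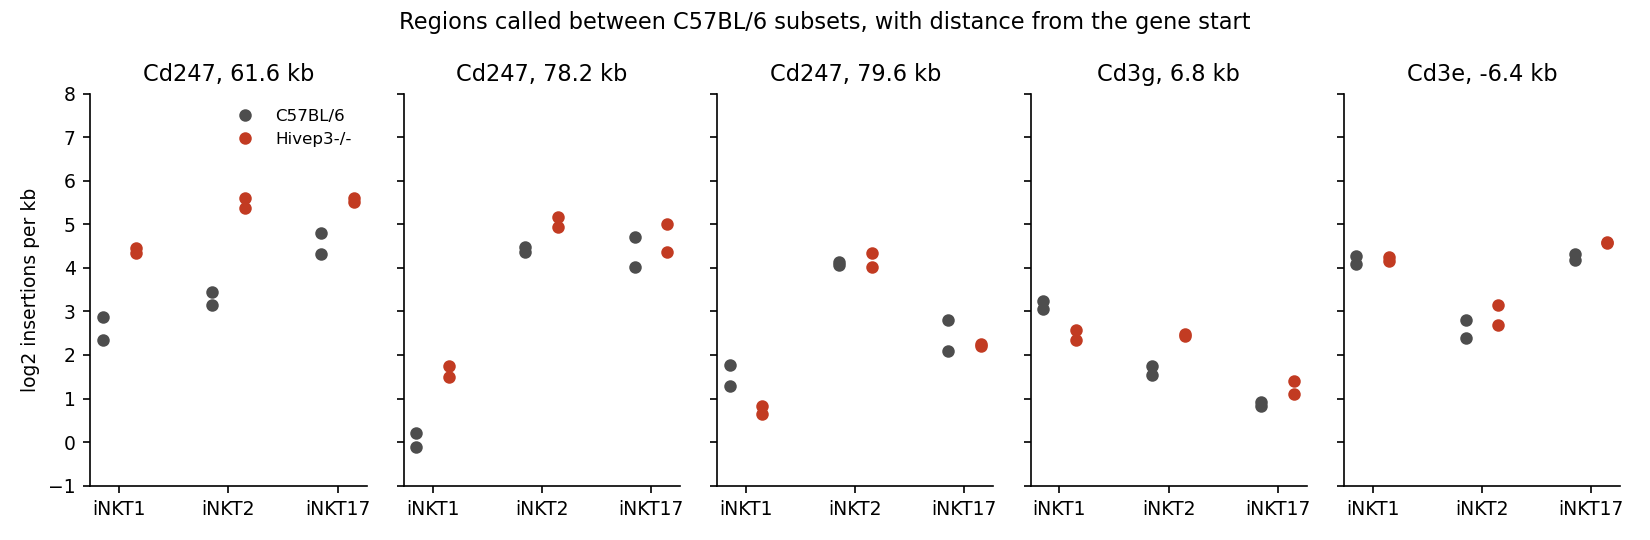
Log2 insertions per kb, 1 point per library, of the 5 regions called between C57BL/6 subsets, each named by its gene and its distance in kb from the gene start (negative before the start), for C57BL/6 (grey) and *Hivep3*-/- (red) cells. iNKT1 cells lie lowest at the 3 *Cd247* regions, and at the *Cd3g* region C57BL/6 iNKT1 cells lie highest.

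The genes that act next to the CD3 chains were read from a list. This list of 35 genes of proximal TCR signalling, from the receptor constant regions through kinases, adaptors and phosphatases, held 508 regions, of which 481, 446 and 426 were tested in iNKT1, iNKT2 and iNKT17 cells. None was called in iNKT1 cells, where 0.89% of all regions were called higher and 0.264% lower, and the median changes over the list were -0.01, 0.06 and 0.11. The list was chosen with earlier results of these data known. Among the genes reported here, a region of *Zap70*, the kinase recruited by the CD3 tails, was called higher in iNKT17 cells (1.88, adjusted p = 0.0291 by limma). In iNKT2 cells 2 regions of *Ubash3a*, a negative regulator of TCR signalling, were called lower, the larger change being -2.52 (adjusted p = 0.0155). In all, 1 region was called higher in each of iNKT2 and iNKT17 cells and 2 were called lower in iNKT2 cells, where 0.474% and 0.133% of all regions were called higher and 1.2% and 0.138% lower.

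Over the 12 libraries the mean log2 accessibility of *Cd247* followed that of the cluster poorly (Pearson's r = 0.133). Among 14802 genes with at least 3 regions, the profiles most like that of *Cd247* were those of *Pgk1* (0.952), *Wls* (0.938) and *Gtpbp1* (0.926). For the cluster the most alike of 14805 were *Gm12891* (0.983), *Gm19585* (0.979) and *Gm33858* (0.963). These are descriptions over libraries that fall into 6 groups of 2.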

How the data were processed

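ATAC-seq reads were trimmed with Trimmomatic 0.39, per the submitters' processing notes, and aligned to mm10 with the ENCODE pipeline. The authors counted insertions in 500 bp peak regions and deposited 1 table of log2 insertions per kb, normalized with voom and by quantiles, for 12 libraries. No read counts were used here, so depth is unknown. All value columns matched a sample.

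The deposited log2 values were fitted with limma 3.58.1 in R 4.3.3, with 1 mean per group, a variance trend and all 12 libraries, and p-values were adjusted (Benjamini-Hochberg) over all tested regions. A region was tested where the linear mean reached 5 insertions per kb in any compared group. Calls needed a change of 3-fold or more and an adjusted p under 0.1. The fit was tested on simulated data. Changes are *Hivep3*-/- minus C57BL/6. For each locus and comparison the largest rise and fall, regions within 1 kb of a start, regions called in all 3 subsets, the largest calls between subsets and regions with differing genotype changes were named. The members and lists were chosen with earlier results of these data known. Other thresholds, filters, pseudocounts, normalizations, blocks and flanks, and leaving out each library, were tried. Protein sequences were not analysed here, and some genes of the marker and signalling lists are not reported here.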

Additional observations from a re-analysis of the deposited data

Results flagged for a closer look

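At 3 regions of the first intron of *Cd247* the genotype change differed between subsets in a direct test by limma, being larger in iNKT2 than in iNKT1 cells by 1.84 at 18.7 kb, by 2.20 at 32.2 kb and by 2.38 at 41.4 kb from the start, on the log2 scale. All 3 regions were higher in both *Hivep3*-/- libraries than in both C57BL/6 libraries in each of these subsets. In iNKT1 cells none of the 3 reached the accessible level, so their changes there of 1.29, 1.93 and 0.80 were not tested alone, and all 3 entered the test only through *Hivep3*-/- iNKT2 cells. The calls were lost in 10 of 21, 8 of 22 and 5 of 22 alternatives, most of them leaving out 1 iNKT1 or iNKT2 library, and were kept with no filter on accessibility.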

How the results depend on the processing

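With calls at 2-fold, *Cd247* had 12 called regions between genotypes in iNKT1 and 17 in iNKT17 cells, 7, 5 and 2 between C57BL/6 subsets (iNKT1 and iNKT2, iNKT1 and iNKT17, iNKT2 and iNKT17), and 2 genotype changes that differed between iNKT2 and iNKT17. The cluster had 3 between iNKT1 and iNKT2 and 3 between iNKT1 and iNKT17. Without the filter on accessibility *Cd247* had 8 in iNKT1 and 3 between C57BL/6 iNKT2 and iNKT17, and its iNKT1 median was 1.32. With a mean of 5 over all libraries the iNKT1 and iNKT2 medians were 1.32 and 0.90, *Cd247* had 2 calls between C57BL/6 iNKT2 and iNKT17, and the cluster had 0 between iNKT1 and iNKT17.

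With a pseudocount of 1, *Cd247* had 2 calls in iNKT1, 7 in iNKT17 and 5 averaged over the subsets, and both loci had 0 between C57BL/6 iNKT2 and iNKT17. With a pseudocount of 5, which lowers every fold change of a weak region, *Cd247* had 0, 5 and 0 calls in iNKT1, iNKT2 and iNKT17, 0 averaged over the subsets, 1, 1 and 0 between C57BL/6 subsets, and 0 changes that differed between iNKT1 and iNKT2. Its medians were then 0.67, 0.77 and 0.76, and the cluster had 0 calls between iNKT1 or iNKT2 and iNKT17. Renewed quantile normalization, median centring and a 50 kb flank each gave the cluster 1 call between C57BL/6 iNKT1 and iNKT2. A 50 kb flank took in more regions and gave *Cd247* medians of 0.68, 0.89 and 0.89. Gene bodies alone gave an iNKT1 median of 1.32 and left the cluster 0 calls between iNKT2 and iNKT17. Without a variance trend 1 change at *Cd247* differed between iNKT2 and iNKT17. The cause was otherwise not tested. The *Cd247* genotype medians and the largest calls kept their direction under all of these alternatives. The iNKT1 median of the cluster, -0.01 in the main fit, lay too near 0 to hold a direction.

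Leaving out 1 library at a time gave 2 to 6, 11 to 13 and 7 to 11 calls between genotypes at *Cd247* in iNKT1, iNKT2 and iNKT17, 11 to 12 averaged over the subsets, and 0 at the cluster. Between C57BL/6 subsets it gave 2 to 3, 2 and 0 to 1 at *Cd247* and 0 to 1, 1 and 0 to 1 at the cluster. Differing changes numbered 0 to 3, 0 to 2 and 0 to 1, where the 2 between iNKT1 and iNKT17 and the 1 between iNKT2 and iNKT17 came without the first C57BL/6 iNKT17 library. The medians ran from 0.99 to 1.14, 1.02 to 1.10 and 0.84 to 1.29 at *Cd247* and from -0.03 to 0.02, 0.12 to 0.23 and 0.02 to 0.16 at the cluster. A lone library was assumed to vary like the other groups.

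The titles give each replicate number as a mouse, so subsets of 1 genotype may share it, while the protocol speaks of pooled thymi and mice of different genotypes are not the same. Deviations of libraries with the same number correlated at 0.0911 to 0.174 between groups. With the replicate block the counts of calls were 4, 12 and 11 at *Cd247* and 0 at the cluster, as without it, and the block changed no other count of calls. Only 2 libraries a group and unknown depth limit low regions most.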
